A study of Schmidtea mediterranea with 24 samples.

Results

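In sorted cells of the planarian flatworm Schmidtea mediterranea, 8 of 36035 gene identifiers had a mean level that was lower at 6 h after amputation than in intact worms and lower again at 48 h. The fall had to appear both in cells that carried mmp-1 RNA (mmp-1+) and in cells that did not (mmp-1-). The 8 identifiers were SMED30024356, SMED30003449, SMED30020257, SMED30019884, SMED30012522, SMED30005552, SMED30010494 and SMED30007879. They were chosen on group means in CPM (each count divided by the counted reads of its library, times 1e6) after log2(mean CPM + 1). The highest group mean had to reach 10 CPM, and mmp-1+ and mmp-1- means had to lie within 0.8 of each other at each time. In both populations the 6 h value had to be 0.5 to 1.5 below intact, and the 48 h value at least 0.5 below that at 6 h. Of 10978 identifiers that reached 10 CPM, 221 met the limits at 6 h together with the sort limits, 238 met the later limit together with the sort limits, and 8 met all limits. Because these values chose the genes, their changes over time in sorted cells are given as a description, without a test.

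Planarians rebuild missing body parts from a population of adult stem cells, the neoblasts. An isolated tail must make a new head and pharynx and reorganise the tissue that remains. The matrix metalloproteinase mmp-1 belongs to a family of secreted or membrane-bound enzymes that cut extracellular matrix. The deposited files do not pair the SMED30 identifiers with gene names, so no name, role or sequence is given for any of the 8 genes, and mmp-1 itself and tissue markers were not analysed here.

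The sorted cells came from 3 groups of wildtype worms, starved for 11 days: intact animals, tail fragments 6 h after amputation and tail fragments 48 h after amputation. Each condition had 3 biological replicates with 100 worms in each. Cells were fixed while they were dissociated (ACME), stained for mmp-1 RNA by hybridization chain reaction, and separated by flow cytometry, and 1000 cells of each population made up a library. Intact samples hold the whole body and the other samples only tail, so a difference from intact cannot be told apart from a difference in tissue. The comparison of 48 h with 6 h is between tail fragments. In these bulk libraries, fewer cells of a type and less RNA per cell cannot be told apart. The 4 tissue sections, made by Slide-seqV2 (capture of RNA on barcoded beads of known position), came from 1 frozen block at each time. A block held 8 to 9 tail fragments around 1 intact animal, and 2 adjacent sections were cut from it. The 2 sections of a time are therefore not biological replicates, and the labels do not tell which piece of tissue is the intact animal.

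The 18 libraries held 52969393 to 66114382 counted reads and 33455 to 34080 identifiers with a read, and 3 counts in a library corresponded to 0.0454 to 0.0566 CPM. No library of a group was a second deposit of another: the chi-square statistic per gene, near 1 for 2 draws from the same library, was 12.7 to 118 over the pairs. The scaling factors of edgeR (TMM) were 0.784 to 0.995 for mmp-1+ and 1.06 to 1.18 for mmp-1- libraries, so a gene of unchanged share among other genes has a lower CPM in mmp-1+ cells. In the sections, 9423, 14431, 13822 and 12697 beads lay on tissue (6 h section 1, 6 h section 2, 48 h section 1 and 48 h section 2), with a median of 679, 549, 951 and 812 UMIs (unique molecular identifiers) per bead. Any pair of sections shared 3 to 5 bead barcodes.

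In 7 of the 8 genes, the 3 libraries at 6 h lay wholly below the 3 intact libraries in mmp-1+ cells, as they did for 23.2% of the 10978 genes of at least 10 CPM. The same 7 were separated in mmp-1- cells, where 16.6% of genes were. From 6 h to 48 h the separation held for all 8 genes in mmp-1+ cells (11.1% of genes) and in mmp-1- cells (15.7% of genes). Between intact and 48 h it also held for all 8 (19.8% and 17.1% of genes). These counts follow from the choice of the genes and carry no independent weight. The gene outside the pattern at 6 h was SMED30024356, whose intact and 6 h libraries overlapped in both populations. Its course goes against the label of a stepwise fall and is described separately.

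Among the other 7 genes, the mean level at 6 h was 43.1% to 62.5% of intact in mmp-1+ cells (median 53.8%) and 55.2% to 69.3% in mmp-1- cells (median 62.6%). At 48 h it was 19.3% to 38.8% of intact (median 33.8%) and 19.5% to 43.2% (median 35.6%). The level in intact worms was thus 2.58-fold to 5.19-fold that at 48 h in mmp-1+ cells and 2.31-fold to 5.14-fold in mmp-1- cells. On the log2(CPM + 1) scale, averaged over both populations, 42.6% to 53.6% of the 48 h fall was present at 6 h. For SMED30024356 that share was 13.4%.

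**Figure D1:**
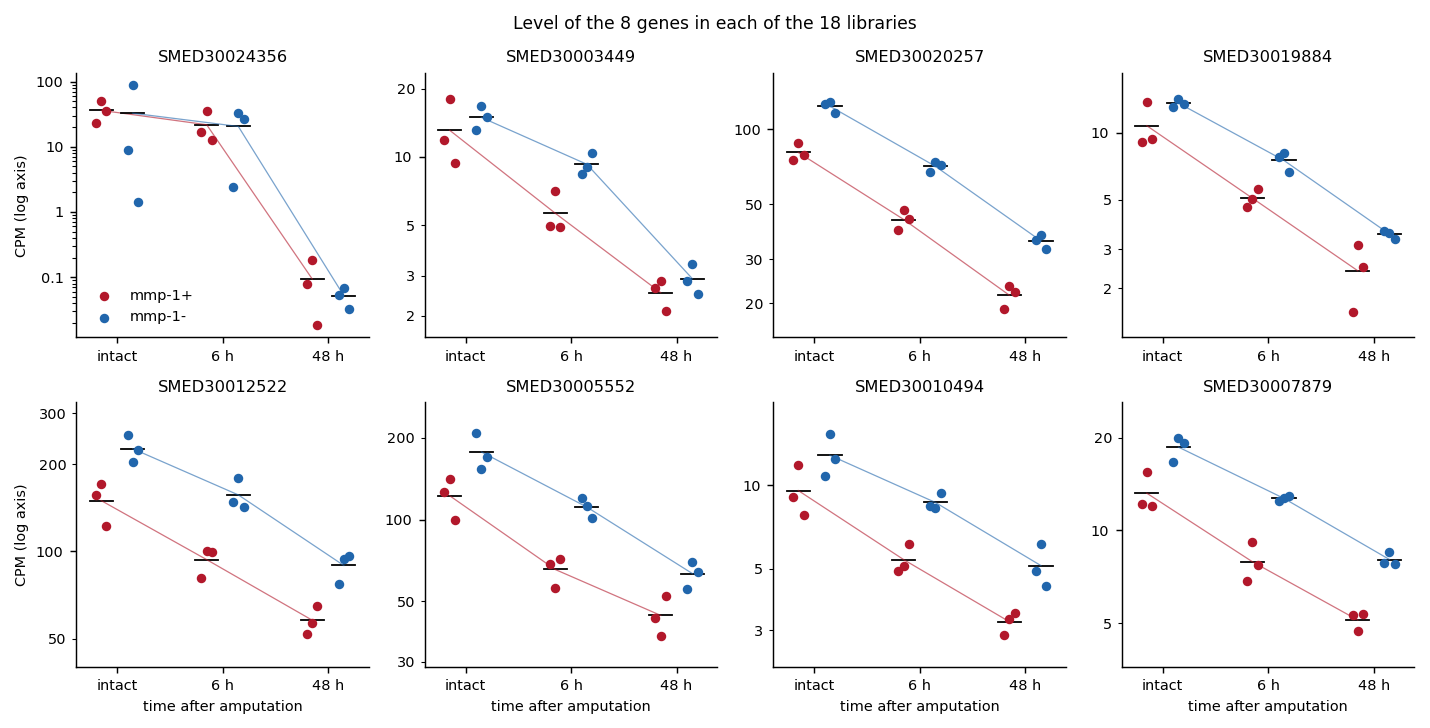
Level of each of the 8 genes in CPM (log axis) in the 3 libraries of each group (points), with the group mean as a black bar, in mmp-1+ cells (red) and mmp-1- cells (blue). In 7 genes the points step down from intact to 6 h to 48 h without overlap, and in SMED30024356 intact and 6 h overlap and all 48 h points lie at or below 0.184 CPM.

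SMED30012522 and SMED30005552 had large counts in every library. In mmp-1+ cells SMED30012522 was at 157, 171 and 122 CPM in intact worms, 81.1, 100.5 and 99.3 at 6 h and 52.0, 56.7 and 64.8 at 48 h. In mmp-1- cells it was at 251, 204 and 223 CPM in intact worms, 148, 179 and 143 at 6 h and 77.1, 94.5 and 96.6 at 48 h. No group overlapped the next in time in either population, and the lowest mmp-1- library was above the highest mmp-1+ library at each time. With edgeR, which scales libraries by TMM, the log2 change from intact was −0.56 ± 0.11 (SE) at 6 h and −1.39 ± 0.11 at 48 h in mmp-1+ cells. The mmp-1- values were −0.50 ± 0.11 and −1.38 ± 0.11.

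In mmp-1+ cells, SMED30005552 stood at 126, 141 and 99.8 CPM in intact worms, 68.8, 56.1 and 71.7 at 6 h and 43.3, 37.4 and 52.4 at 48 h. In mmp-1- cells it was at 208, 154 and 171 CPM, then 119.7, 112.6 and 101.4, then 55.6, 70.1 and 64.3. The 3 times were again separate in both populations, with the narrowest gap in mmp-1+ cells between 6 h replicate 2 and 48 h replicate 3. Its log2 change from intact was −0.78 ± 0.13 at 6 h and −1.49 ± 0.13 at 48 h in mmp-1+ cells, and −0.64 ± 0.13 and −1.53 ± 0.13 in mmp-1- cells. The ratio of SMED30012522 to SMED30005552 counts, which is not corrected for transcript length, stayed between 1.18 and 1.79 over the 18 libraries (median 1.31).

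SMED30020257 had the closest agreement between libraries. Its mmp-1+ libraries were at 75.3, 87.8 and 78.7 CPM in intact worms, 39.3, 47.4 and 43.5 at 6 h and 19.0, 23.4 and 22.3 at 48 h. Its mmp-1- libraries were at 126, 129 and 116 CPM, then 67.6, 73.7 and 71.5, then 36.0, 37.6 and 33.2. At 48 h the level was 26.8% (mmp-1+) and 28.8% (mmp-1-) of intact. All groups were separate, and at each time every mmp-1+ library lay below every mmp-1- library. The SD within groups on the log2(CPM + 1) scale was 0.11, against a median of 0.14 over genes of at least 10 CPM. Its log2 change from intact was −0.78 ± 0.09 at 6 h and −1.92 ± 0.10 at 48 h in mmp-1+ cells, and −0.77 ± 0.09 and −1.84 ± 0.10 in mmp-1- cells.

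SMED30003449 fell furthest among these 7 genes. In mmp-1+ cells it was at 11.9, 18 and 9.43 CPM in intact worms, 4.97, 7.04 and 4.93 at 6 h and 2.65, 2.83 and 2.09 at 48 h. In mmp-1- cells it was at 13.1, 16.7 and 15.0 CPM, then 8.41, 8.98 and 10.4, then 2.85, 3.39 and 2.48. The groups were separate in time, while the 2 populations overlapped in intact worms and at 48 h. In mmp-1+ cells 6 h stood at 43.1% of intact and in mmp-1- cells at 62.1%, and by 48 h the populations were at 19.3% and 19.5%. The log2 difference between the populations in the change at 6 h was −0.43 ± 0.25 (SE), and at 48 h 0.03 ± 0.26.

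The remaining 3 genes lay near the level limit of 10 CPM. SMED30019884 fell from 10.8 ± 2.64 (SD, n = 3) to 5.10 ± 0.463 and 2.40 ± 0.793 CPM in mmp-1+ cells, and from 13.6 ± 0.619 to 7.53 ± 0.763 and 3.51 ± 0.151 CPM in mmp-1- cells. SMED30010494 fell from 9.55 ± 2.04 to 5.39 ± 0.663 and 3.23 ± 0.300 CPM, and from 12.8 ± 2.27 to 8.65 ± 0.602 and 5.13 ± 0.931 CPM. SMED30007879 fell from 13.2 ± 1.98 to 7.92 ± 1.17 and 5.12 ± 0.360 CPM, and from 18.6 ± 1.79 to 12.7 ± 0.244 and 8.05 ± 0.402 CPM. The last of these had the smallest fall of the 8 genes. In intact mmp-1+ cells, replicate 2 was above the group mean in all of the 7 genes (median deviation 0.22 in log2) and replicate 3 was below it in all of them (−0.24). Over the genes of at least 10 CPM the same libraries deviated by 0.13 and −0.11.

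**Figure D2:**
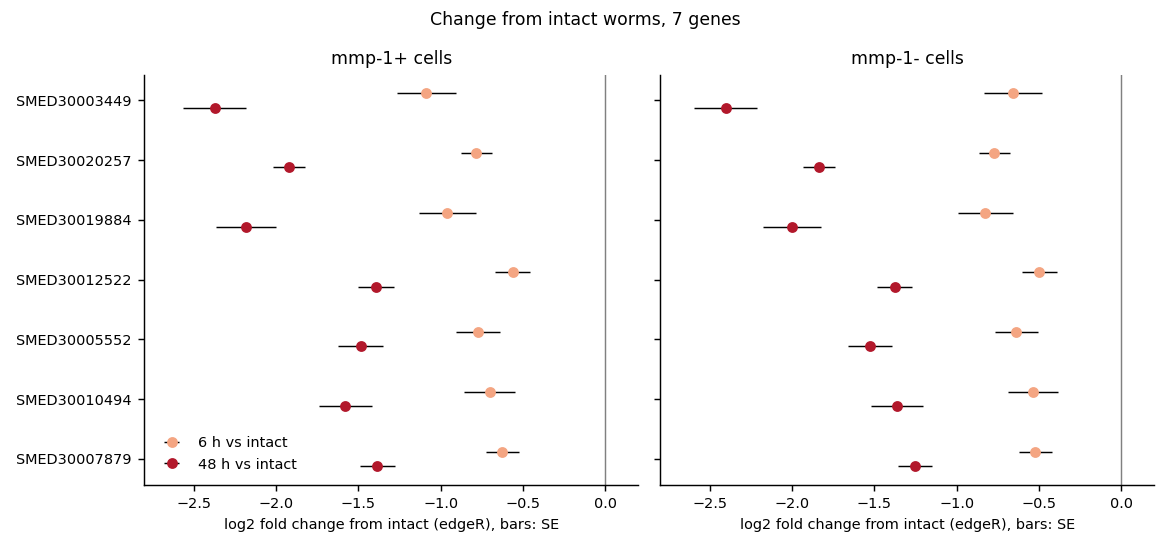
Log2 fold change from intact worms at 6 h (light) and 48 h (dark) in mmp-1+ cells (left) and mmp-1- cells (right) for 7 of the 8 genes, fitted with edgeR over 18 libraries, with bars of 1 SE. The 48 h value lies below the 6 h value in each gene, and the bars of the 2 times do not meet. SMED30024356, at −8.58 and −9.32 at 48 h, is off the scale and not drawn.

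SMED30024356 was nearly lost at 48 h and varied greatly before that. In mmp-1+ cells it was at 22.9, 49.9 and 35.6 CPM in intact worms and 17.1, 35.6 and 12.6 at 6 h. At 48 h the same population held 5, 10 and 1 counts, or 0.0799, 0.184 and 0.0183 CPM. In mmp-1- cells it was at 8.85, 87.7 and 1.43 CPM in intact worms, 2.38, 32.6 and 26.5 at 6 h and 0.0541, 0.0688 and 0.0331 at 48 h, the last from 3, 4 and 2 counts. Intact and 6 h libraries overlapped in both populations, and every 48 h library lay below every earlier one. The 48 h mean was 0.26% (mmp-1+) and 0.159% (mmp-1-) of intact. The SD within groups was 1.36 in log2(CPM + 1), at the 99.8th percentile of genes of at least 10 CPM.

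The membership of SMED30024356 rested on single libraries. In mmp-1- intact cells, replicate 2 alone set the mean of 32.7 ± 47.8 CPM (SD, n = 3). Without that library the fitted change at 6 h in mmp-1- cells, −0.71 ± 0.85 (SE) with all libraries, turned to 2.03. The change at 48 h was then −6.58, against −9.32 ± 1.61 with all libraries. Such fitted values against a few counts depend on the prior count edgeR adds and are not bounds.

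In the fit over all 31435 genes the median log2 changes of the 8 genes at 6 h, at 48 h and between them were −0.74, −1.75 and −1.01 in mmp-1+ cells and −0.65, −1.68 and −0.98 in mmp-1- cells, while the medians of all genes lay between −0.018 and 0.0042. The contrasts are those the genes were chosen on, so these values show the choice and nothing further, and the 48 h and 6 h comparisons with intact share the intact libraries.

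The 8 genes tended to a lower CPM in mmp-1+ than in mmp-1- cells, as did many other genes. All mmp-1+ libraries lay below all mmp-1- libraries in 4 of the 8 genes in intact worms (43.3% of genes of at least 10 CPM), in 7 at 6 h (69.2%) and in 6 at 48 h (66.4%). After TMM scaling, edgeR called SMED30020257 lower in mmp-1+ cells at 6 h (−0.32 ± 0.09, SE) and at 48 h (−0.40 ± 0.09), beside 0.907% and 0.398% of genes called lower. In intact worms edgeR called 0 of the 8 lower, beside 0.875% of genes. At an unadjusted p under 0.05 there were 2, and DESeq2 called 1, beside 480 of 31435 genes called lower. The 6 h call was lost on leaving out any of 9 single libraries (mmp-1+ intact replicates 1 and 2, all mmp-1+ and mmp-1- 6 h replicates, and mmp-1+ 48 h replicate 3), with an adjusted p of up to 0.152 by edgeR. The 48 h call was lost on leaving out any of 4 (replicates 1 and 3 of mmp-1+ and 1 and 2 of mmp-1- at 48 h), with an adjusted p of up to 0.0934. With the populations of a time and number as a pair, edgeR called 2 genes lower in intact worms (SMED30020257 and SMED30012522). It called 4 at 6 h (these with SMED30005552 and SMED30007879) and 2 at 48 h (the intact pair of genes). The calls of that fit over all genes were not set beside these counts, so the counts are not read further. With total counts in place of TMM, 4, 7 and 6 of the 8 were called lower, beside 7344, 13658 and 9725 of 31435 genes. The median of all genes itself moved to −0.34, −0.46 and −0.38. The rule also limited the difference between the populations, so these calls describe the genes and test nothing about them.

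Several of the genes lay close to the limits that selected them. Just inside the limit of −0.5 at 6 h in mmp-1- cells stood SMED30010494 at −0.51, SMED30007879 at −0.52 and SMED30012522 at −0.53. Just outside stood SMED30035615, which missed the sort limit at 48 h with −0.82, SMED30016646, at −0.42 at 6 h in mmp-1- cells, and SMED30031540, whose fall from 6 h to 48 h in mmp-1+ cells was −0.41. Over 24 other settings of the rule, SMED30020257 was selected in 24, SMED30003449 and SMED30019884 in 22, SMED30005552 in 21, SMED30012522 in 20, SMED30024356 in 19, SMED30010494 in 18 and SMED30007879 in 16.

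The tissue sections were not used to choose the genes and give a separate view of 6 h against 48 h. With at least 200 UMIs over the sections, 7 of the 8 genes could be compared, and SMED30007879, with 65 UMIs in all, was left out. Of the 7, 4 were lower in both 48 h sections than in both 6 h sections: SMED30024356, SMED30012522, SMED30005552 and SMED30019884. That order was found in 14% of the 10888 genes of at least 200 UMIs. A fall of at least 2-fold between any 48 h and any 6 h section was found in 1 of the 7 genes, SMED30024356, and in 1.18% of genes. The median log2 ratio of 48 h to 6 h was −0.54 over the 7 genes and 0.28 over all 10888. With 1 block at each time and an intact animal in each block, no test of time was possible.

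SMED30012522 was at 249 and 157 CPM in the 6 h sections and 84.5 and 79.8 CPM in the 48 h sections. SMED30005552 was at 1147 and 728 CPM at 6 h and 521 and 642 CPM at 48 h. Both were lower at 48 h, by 1.26 and 0.66 in the mean of log2(CPM + 1) over the sections. The 2 adjacent 6 h sections of each gene also lay apart beyond their counting intervals. SMED30019884 was at 8.03 and 8.94 CPM at 6 h and 5.53 and 5.52 CPM at 48 h, and its lowest 6 h interval (6.34 to 10.0 CPM, 95% exact Poisson) overlapped its 48 h intervals (up to 6.74 CPM). These intervals cover counting error only.

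In SMED30020257, SMED30003449 and SMED30010494 the sections of the 2 times overlapped. SMED30020257 was at 23.1 and 23.3 CPM in the 6 h sections and 23.2 and 22.6 CPM in the 48 h sections, a log2 ratio of −0.02. In the sorted cells its change from 6 h to 48 h had been −1.14 ± 0.09 (SE) and −1.06 ± 0.09. The 4 section values of this gene lay within each other's counting intervals (lowest bound 20.1, highest 26.3 CPM). SMED30003449 was at 9.49 and 12.2 CPM at 6 h and 5.53 and 9.51 CPM at 48 h, and SMED30010494 at 7.61 and 5.55 CPM and 6.25 and 5.35 CPM. Their log2 ratios of 48 h to 6 h were −0.50 and −0.15. The sections hold all tissue of the pieces, the intact animal included, and the sorted libraries hold tail cells that passed the gates. The part of that difference in the result was not tested.

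**Figure D3:**
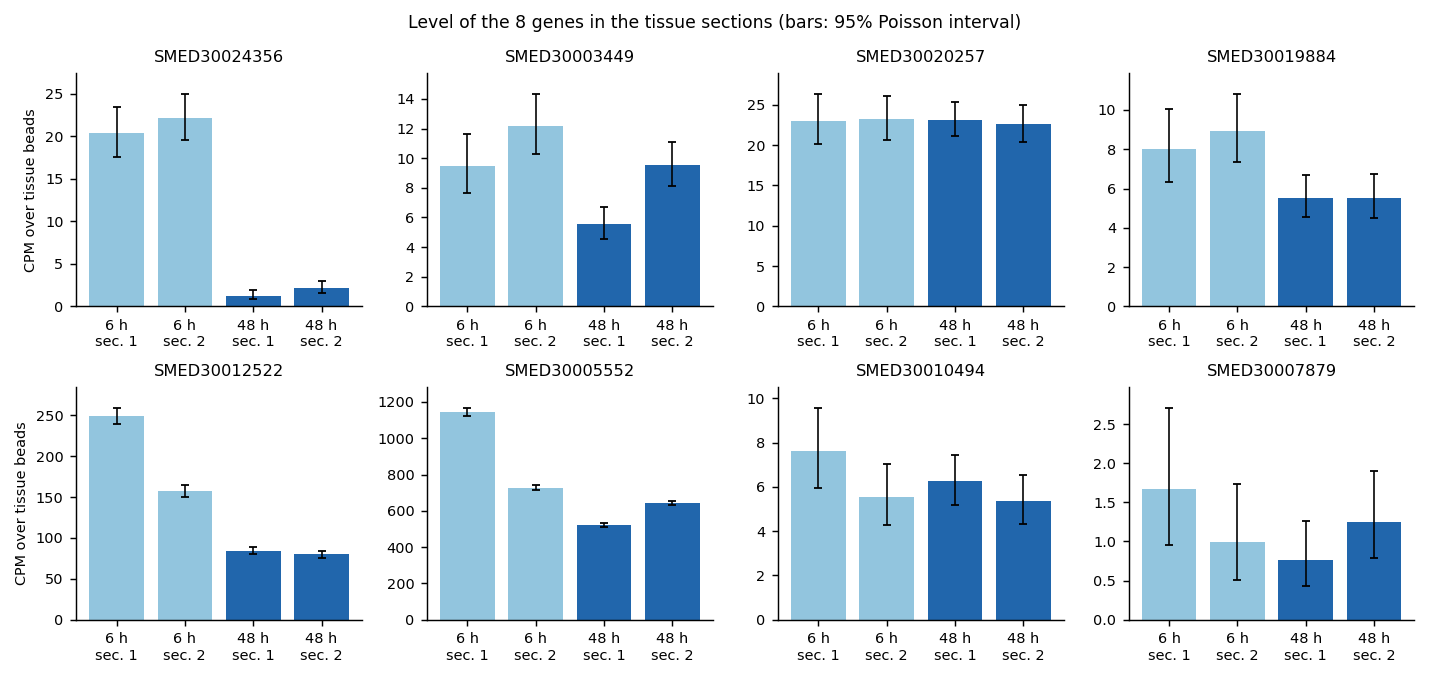
Level of the 8 genes in CPM over tissue beads in the 4 sections, 6 h in light and 48 h in dark blue, with 95% Poisson intervals for counting error. SMED30024356 and SMED30012522 are lower in both 48 h sections, and SMED30020257 stands between 22.6 and 23.3 CPM in all 4 sections.

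Where the genes lay in the tissue differed widely among them. Moran's I, which is near 0 for a gene scattered at random over beads and rises as neighbouring beads resemble each other, had a mean over the sections of 0.292 for SMED30005552, 0.232 for SMED30024356 and 0.139 for SMED30012522. These were ranks 81, 122 and 257 of 10888 genes, whose median was 0.00392 and 95th percentile 0.0693. The other 4 genes lay between 0.00206 and 0.0161, and they had far fewer UMIs than SMED30005552 and SMED30012522. SMED30024356 reached its value with 525 UMIs, a number within the 357 to 1355 of those 4 genes.

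SMED30005552 and SMED30012522 overlapped in the tissue. Over tiles of 150 position units, their levels correlated with a mean Pearson r of 0.774 over the 4 sections (0.688 to 0.850), and each was the other's closest partner among the 10888 genes. Tiles share a section, its depth and its tissue outline, and these values are a description. The next closest pairs among the 7 genes were SMED30020257 with SMED30005552 (mean r 0.314) and with SMED30012522 (0.303), and the lowest was −0.0208.

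A region of high SMED30005552, taken as the 10% of tissue beads with the highest level smoothed over neighbours, held 943, 1443, 1383 and 1270 beads in the 4 sections. In the order 6 h section 1, 6 h section 2, 48 h section 1 and 48 h section 2, it held 45.9%, 47.8%, 40.8% and 44.6% of SMED30012522 UMIs. Of all UMIs it held 8.44%, 9.04%, 8.44% and 9.06%. SMED30012522 was at 1357, 831, 409 and 393 CPM inside and 147, 90.3, 54.7 and 48.6 CPM outside, so it was lower at 48 h both inside and outside the region. SMED30020257 was at 35.8, 40.3, 49.95 and 47.8 CPM inside and 21.9, 21.6, 20.7 and 20.1 CPM outside. Its level inside was higher in the 48 h than in the 6 h sections, on 29, 44, 83 and 76 UMIs. In a region set in the same way by SMED30012522, SMED30020257 was at 45.3, 48.2, 49.9 and 51.3 CPM inside. The size of the rise thus depended on the gene that set the region, and no counting intervals were computed for these levels. The median of all genes differed by 0.18 in log2 between inside and outside of the SMED30005552 region.

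**Figure D4:**
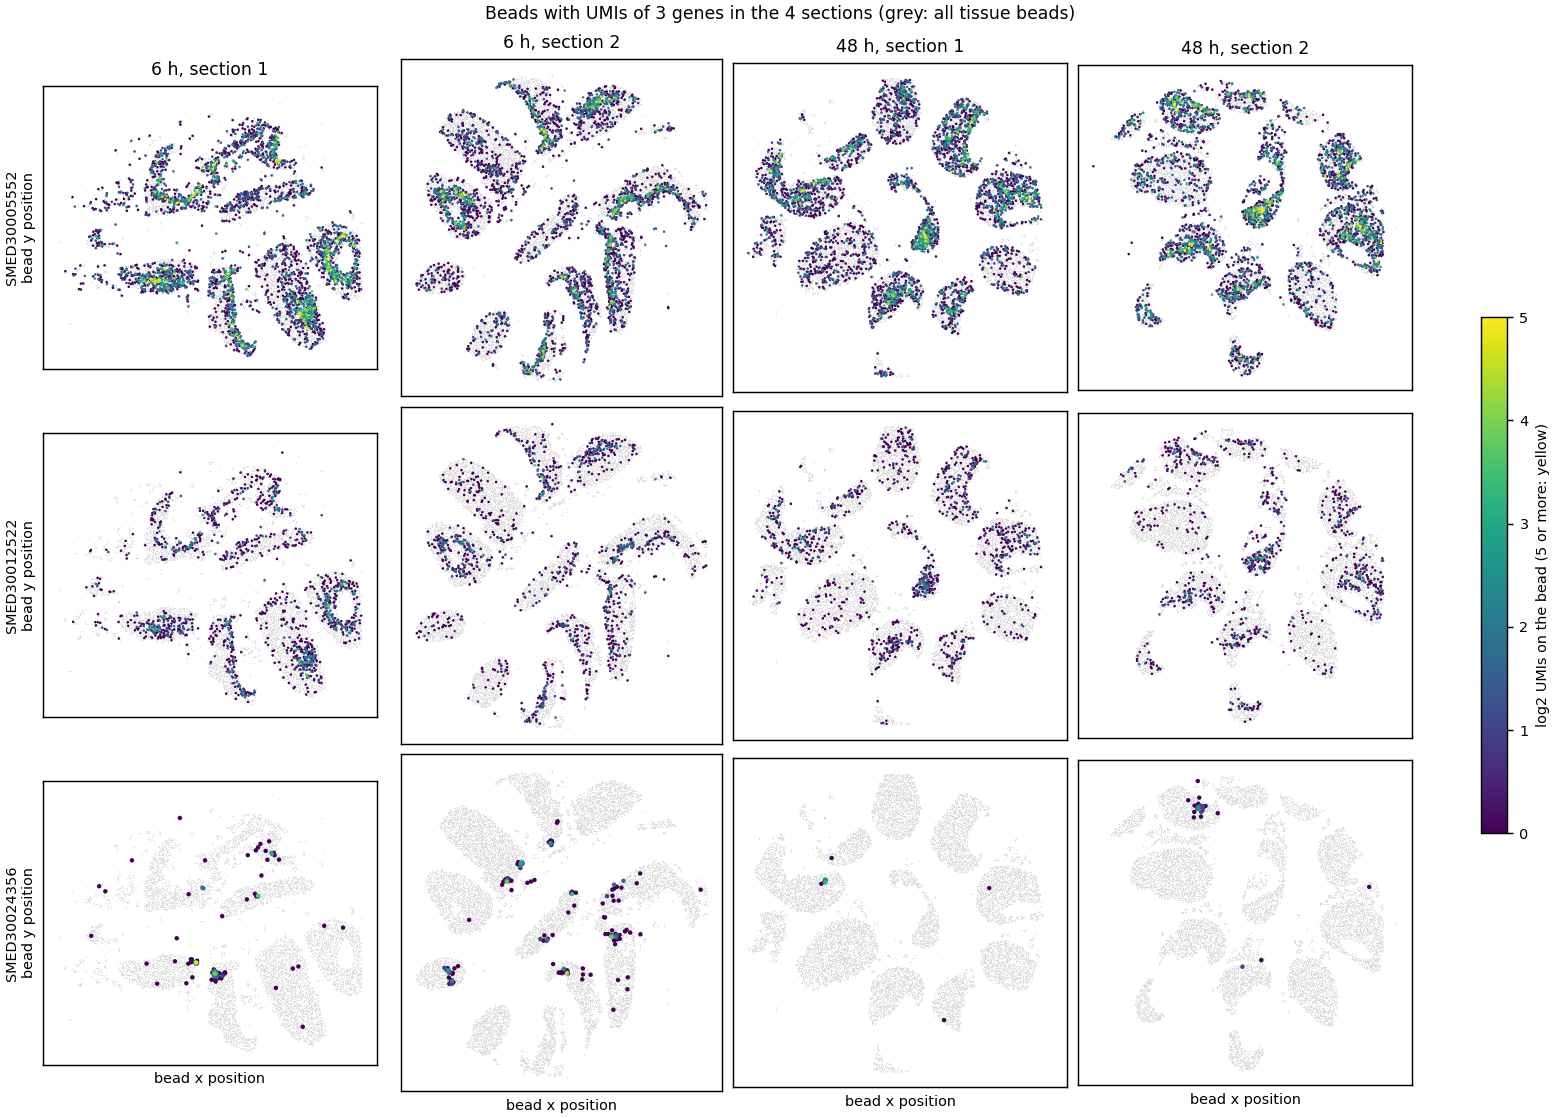
Positions of tissue beads (grey, x and y in the position unit of the deposited tables) and of beads with UMIs of 3 genes, coloured by log2 UMIs, in the 4 sections. SMED30005552 and SMED30012522 mark the same bands and patches in most pieces, and SMED30024356 forms small spots in several pieces at 6 h and in few at 48 h.

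Genes of the same region were mostly lower at 6 h than intact in the sorted cells. The 50 genes with the highest ratio of inside to outside, with the 8 genes left out, had a median change at 6 h of −0.91 (mmp-1+) and −0.71 (mmp-1-), on the log2(CPM + 1) scale. They were drawn from 9224 genes with at least 200 UMIs in the sections and a highest group mean of at least 10 CPM in sorted cells. Over all of these 9224 genes, from which the 8 were also left out, the medians were −0.10 and −0.01. From 6 h to 48 h the 50 genes changed by a median of 0.09 and −0.02, against 0.11 and 0.05 over all. A further fall of at least 0.5 was seen in 4 of the 50 (8.0%) in mmp-1+ cells and in 6 (12.0%) in mmp-1- cells, against 3.14% and 4.00% of all genes, and the rule required that fall of SMED30005552 and SMED30012522. In the sections the 50 genes had a median log2 ratio of 48 h to 6 h of 0.27, against 0.29 over all genes, −0.66 for SMED30005552 and −1.26 for SMED30012522. The 50 genes were chosen after values of these sections were seen, and no test was made of them.

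**Figure D5:**
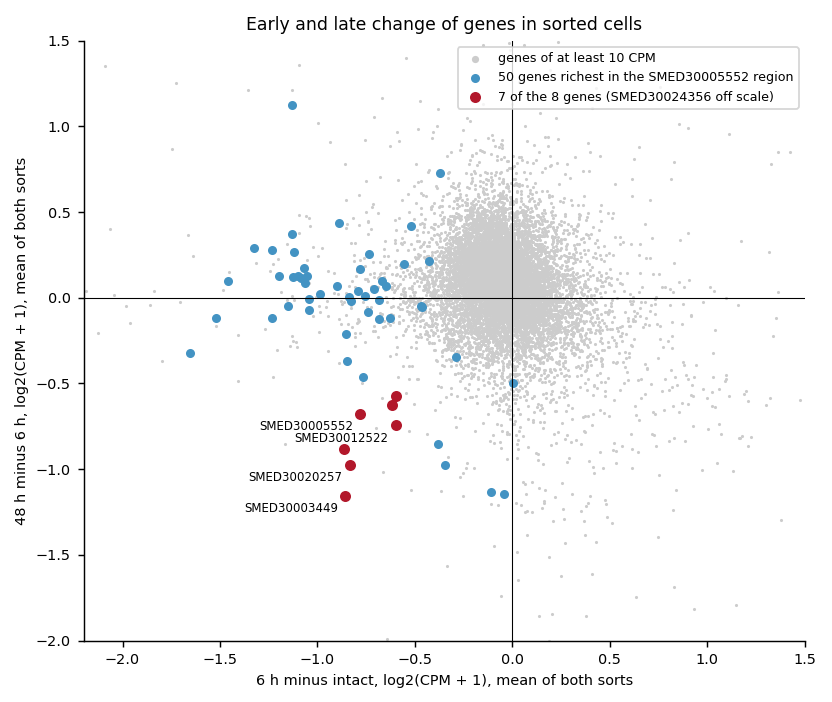
Change from intact to 6 h (x) and from 6 h to 48 h (y) on the log2(CPM + 1) scale, mean of both populations, for 10836 genes (grey; 142 genes lie outside the axes), the 50 genes highest in the SMED30005552 region relative to other beads (blue) and 7 of the 8 genes (red). Most blue points lie left of 0 on the x axis and near 0 on the y axis, and the red points lie below most of them.

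Some of the genes were higher near the edge of the tissue. Beads within 60 position units of a non-tissue position made up 40.0% to 47.8% of tissue beads. In each section the rim level exceeded the interior level for SMED30003449, SMED30010494, SMED30020257 and SMED30019884, 4 of the 7 genes, which was the case for 30.6% of all genes. SMED30003449 was at 17.9, 23.9, 10.6 and 16.3 CPM at the rim and 5.21, 4.73, 3.4 and 6.49 CPM inside, a mean log2 ratio of 1.58. SMED30010494 was at 12.6, 8.53, 11.4 and 9.27 CPM at the rim and 5.05, 3.65, 4.05 and 3.62 CPM inside, a mean log2 ratio of 1.16. Rim and interior did not overlap over the sections in either gene. SMED30003449 was lower at the rim in each 48 h section than in each 6 h section, on 58, 112, 62 and 88 UMIs. The closest values, 17.9 CPM (6 h section 1) and 16.3 CPM (48 h section 2), lay near each other, and no counting intervals were computed for the rim. The interior did not keep this order, with 6.49 CPM in 48 h section 2 above both 6 h sections.

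SMED30020257 and SMED30019884 had smaller mean log2 ratios of rim to interior, 0.64 and 0.53, beside a median of 0.09 over all genes. Rim beads were shallower, with a median of 428 to 669 UMIs against 693 to 1204 inside, and the part of depth in these ratios was not tested. For SMED30005552, SMED30012522 and SMED30024356 the ratio differed in sign between sections.

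SMED30024356 lay in small spots. In the 6 h sections 195 and 267 UMIs (20.3 and 22.1 CPM) fell on 77 and 131 beads, and 37.9% and 25.1% of them on 5 beads. In the 48 h sections 25 and 38 UMIs (1.27 and 2.16 CPM) fell on 8 and 24 beads. At 6 h the gene had UMIs in 8 of 8 and 8 of 11 pieces of at least 100 beads, and at 48 h in 4 of 13 and 4 of 12, where 1 piece held 88.0% and 86.8% of them. The intact animal is among the pieces of each section, but which piece it is cannot be told apart from the labels.

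A gene just outside the limits, SMED30035615, had a similar distribution over tiles of the tissue. Whether it shared beads with SMED30024356 was not tested. SMED30035615 was chosen after its values were seen. Over tiles it was the closest of the 10888 genes to SMED30024356 (mean r 0.684, lowest section 0.553). Its section levels were 23.7 and 18.6 CPM at 6 h and 2.84 and 2.90 CPM at 48 h. The mmp-1+ libraries were at 51.5, 129 and 96.5 CPM in intact worms, 29.5, 78.6 and 31.4 at 6 h and 1.97, 1.01 and 2.10 at 48 h. In mmp-1- cells it was at 6.17, 218 and 10.5 CPM, then 12.4, 38.4 and 39.8, then 10.6, 0.413 and 0.232. As with SMED30024356, replicate 2 of mmp-1- intact cells was the highest of the 18 libraries. That library was also the highest for SMED30012207 (147 CPM), SMED30025282 (159 CPM) and SMED30002881 (112 CPM), though not for SMED30005852. Over the 18 libraries SMED30012207 was the gene closest to SMED30024356 (r 0.947), and 79 of 10977 genes had an r of at least 0.8. SMED30012207, SMED30025282, SMED30002881 and SMED30005852 were picked for a high r with SMED30024356 over these same libraries. A high value in that library was thus favoured by the choice, and nothing is drawn from it. The 2 genes differed in mmp-1- cells at 48 h, where replicate 1 held 10.6 CPM of SMED30035615 and 0.0541 CPM of SMED30024356.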

How the data were processed

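The deposited table of sorted cells holds raw read counts per SMED30 identifier, not normalized. STAR 2.7.3a and RSEM are named for these samples in the submitters' processing notes, and bcl2fastq 2.20 for the sections. Which reference and options were used is not known (not given in the sources used here); 4 rows for reads without a gene (12.1% to 16.1% of counted reads unmapped, 5.67% to 9.21% multimapping) were left out, so near-identical genes are uncertain. Libraries were unstranded and PCR-amplified without molecular identifiers, and reads are not independent molecules.

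For the sections, the authors deposited raw UMI counts by gene and bead, and a table of bead x and y positions whose unit was not stated. Tissue beads had at least 50 UMIs and a mean over 20 nearest positions above an Otsu threshold. Per-section counts were summed over tissue beads and given as CPM. Moran's I used 8 neighbours. Tiles had at least 20 beads and used log2(CPM + 10). Pieces were beads linked within 30 units. No doublet caller applies to beads.

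edgeR 4.0.16 (R 4.3.3; TMM, filterByExpr, quasi-likelihood test, 6 group means, Benjamini-Hochberg adjustment over 31435 genes) was fitted to all 18 libraries. DESeq2 1.42.0, total-count scaling, no filter, a replicate block and leaving out each library were alternatives. Same-numbered mmp-1+ and mmp-1- libraries of a time were correlated in their deviations from group means. The values were 0.132 to 0.654 (6 h), 0.136 to 0.340 (48 h) and −0.116 to 0.138 (intact). For different numbers they were −0.640 to 0.275, −0.250 to −0.056 and −0.100 to 0.090. Deviations in a group sum to 0, which ties the 2 ranges to each other. The ranges were apart at 48 h only, so pairing by number is unsure at 6 h and was not seen in intact worms. Numbers of a population did not pair across times (−0.477 to 0.176). All scripts with a test across genes were tested on simulated data. The genes and lists were chosen with earlier results of these data known. Genes were to be named by rank of level, fall, spread and section values, and with 8 genes each was named. Lists of tissue markers could not be matched to identifiers and were not used. The 2 single-cell samples were not analysed here.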

Additional observations from a re-analysis of the deposited data

How the results depend on the processing

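Which genes met the rule depended on its settings. Against 8 genes, a pseudocount of 5 CPM gave 5, a minimum of 20 CPM gave 4, and leaving out each library in turn gave 5 to 12, the 5 without mmp-1- intact replicate 2 or mmp-1- 6 h replicate 1 and the 12 without mmp-1- intact replicate 3. With TMM scaling 7 genes met it, 5 of them among the 8. Over 48 gene and time comparisons with 22 alternatives each, the direction was kept in 1055 of 1056. The genes were chosen on these same comparisons and libraries, so a kept direction carries no independent weight. In 7 alternatives the direction was kept but the call at an adjusted p under 0.05 by edgeR was lost. These were 6 h comparisons of SMED30010494 and SMED30003449 with single libraries left out. In 1 the sign turned: SMED30024356 at 6 h in mmp-1- cells, to 2.03 without mmp-1- intact replicate 2 (leaving out each library gave −1.27 to 2.03).

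Calls between the populations, recomputed after the data were seen, moved with the scaling. With total counts, 4 (intact), 7 (6 h) and 6 (48 h) genes were called lower in mmp-1+ cells, where TMM had given 0, 1 and 1. Of all 31435 genes, total counts gave 7344, 13658 and 9725 called lower. In intact worms DESeq2 and the replicate block each gave 1, and at 6 h DESeq2 gave 2. Of all 31435 genes, DESeq2 called 480 and the replicate block 238 lower in intact worms, and DESeq2 called 356 at 6 h. Leaving out each library gave 0 to 1 (intact), 0 to 2 (6 h) and 0 to 1 (48 h). With a block for each time and number (9 pairs of libraries), chosen after seeing the data, 2 (intact), 4 (6 h) and 2 (48 h) genes were called lower. The calls of that fit over all genes were not set beside these counts. In the comparison of 6 h with intact, a block of replicate numbers across times called 7 of 8 genes lower in each population. Of all 31435 genes it called 1235 lower in mmp-1+ cells and 1525 in mmp-1- cells. The genes were chosen on that comparison, so these counts show the choice.

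In the sections, leaving out each section gave a median log2 ratio of 48 h to 6 h of −0.81 to −0.47, against −0.54. That of SMED30010494 lay between −0.344 and 0.052, turning without 6 h section 1, and that of SMED30020257 between −0.033 and 8e-05, turning without 48 h section 2. The median ratio of rim to interior, 0.53, was 0.35 with genes of at least 50 UMIs and 0.16 with genes of at least 500, which changes the genes included. With a rim of 30 position units in place of 60 the mean ratio turned for SMED30024356 (−0.67), SMED30012522 (−0.14) and SMED30005552 (−0.084). The cause of these changes was not tested. Depth limits what the sections show of SMED30007879, with 65 UMIs, and of the genes with 357 to 525.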
